A study of Mus musculus with 6 samples.

Results

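Aminoacyl-tRNA synthetases are the enzymes that join each amino acid to its transfer RNA. The group described here holds 36 named mouse genes, 20 of enzymes that work in the cytosol and 16 of enzymes of mitochondria. The genes were chosen by name, with earlier results of these data known. Each gene was read from the probe sets that carry its symbol alone, and where there were several, from the one with the highest mean over all 6 arrays. Of the 36 genes 34 had such a probe set, out of 19938 genes on the array that had one, and all 34 passed the filter on dim genes that left 13956 genes for the test. Aars and Dars, the cytosolic enzymes for alanine and aspartate, lacked such a probe set and were not analysed here.

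The arrays compared sorted bone marrow cells of 3 wild type mice with those of 3 MYB knockdown mice. MYB is a transcription factor of blood progenitors, and the labels do not say how it was lowered, by which promoter or in which cells. All 6 mice were males of the strain C57BL6, 4 weeks old, with 1 array per mouse, and no treatment is named for either group. The sort kept cells positive for Kit, the stem cell factor receptor of progenitors, and for CD11b (Itgam), an integrin of myeloid cells, with low lineage markers that the labels do not list.

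Most amino acids have separate synthetases for the cytosol and for mitochondria, all encoded in the nucleus, while a few genes serve both compartments and most enzymes recognise 1 amino acid. By the fold of the catalytic domain they belong to class I or class II. In animals several cytosolic enzymes are held with 3 scaffold proteins in a multi-synthetase complex. When amino acids run short, uncharged transfer RNA activates the kinase GCN2, which phosphorylates eIF2alpha and favours the translation of ATF4, a transcription factor that binds genes of amino acid supply and many cytosolic synthetases. MYC is also known to bind synthetase genes in growing cells.

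Values are on the log2 scale, as deposited, so a difference of 1 is a doubling. Differences are knockdown minus wild type with the standard error (SE) of a limma fit over all 13956 genes, and a gene is said to rise or fall where its p-value, adjusted over all those genes by the Benjamini-Hochberg method, is under 0.05. The array medians lay between 5.873 and 5.992. Knockdown mouse 3 stood apart, with correlations over all probe sets of 0.977 and 0.984 with the other knockdown arrays, against 0.994 between mice 1 and 2, so results are also given without it. Myb itself fell by 0.30 ± 0.06 (SE, adjusted p = 0.0196, n = 3 per group). Leaving out knockdown mouse 2 or any of wild type mice 1, 2 and 3 ended that call (adjusted p = 0.0777, 0.0963, 0.0900 and 0.0928 in that order), as did eBayes without its trend of variance with level (adjusted p = 0.0662). In sorted bulk cells, fewer cells of a type and less RNA per cell cannot be told apart.

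Most synthetase genes had a higher mean in the knockdown, by small amounts, and knockdown mouse 3 did not share this shift: its median difference from the wild type mean was 0.03, against 0.24 and 0.30 in mice 1 and 2. The mean was higher in knockdown for 31 of the 34 genes, against 53.6% of all genes tested, and the median difference was 0.23, against 0.02 over all genes tested. In the test 5 of the 34 rose, a share of 14.7% where 6.12% of all genes tested rose, and 0 fell, where 5.48% of all genes tested fell (11.6% were called in either direction). With limma at an unadjusted p under 0.05, 13 were higher and 0 lower. For 16 of the 34 genes every knockdown value lay above every wild type value, a share of 47.1% against 19.9% of all genes tested. No synthetase gene had all knockdown values below the wild type values, against 14.4% of all genes tested. The count of 5 depended on which mice were used. It was 0 without wild type mouse 1 or 3, 1 without wild type mouse 2 or knockdown mouse 2, 3 without knockdown mouse 1 and 19 without knockdown mouse 3. The shares of all genes that rose in those fits were 2.12%, 2.54%, 2.19%, 3.09%, 5.57% and 17.2% in the same order of mice. In the fits with a count of 0, 8 and 9 members were higher and 0 lower at an unadjusted p under 0.05. The share of all genes at that unadjusted threshold was not counted, so unadjusted counts here and below have no background beside them.

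The 5 genes that rose were Wars, Gars, Yars, Iars and Iars2. Wars encodes the cytosolic enzyme for tryptophan. Its log2 values were 8.86, 8.88 and 8.87 in the wild type mice and 9.33, 9.37 and 9.41 in the knockdown mice. The values within each group were close together, and the groups lay far apart beside that spread. Wars rose by 0.50 ± 0.08 (SE) or 1.41-fold (adjusted p = 0.00739). Among the synthetases it had the smallest p, and it was also called without wild type mouse 2 and without any single knockdown mouse, while without wild type mouse 1 or 3 its adjusted p was 0.052 and 0.0537.

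Gars encodes the enzyme for glycine, which serves both the cytosol and mitochondria from 1 gene. The wild type values were 9.86, 9.88 and 9.93, and the knockdown values 10.41, 10.46 and 10.19. The groups did not overlap, and knockdown mouse 3 was the lowest of its group. Gars rose by 0.46 ± 0.09 (1.38-fold, adjusted p = 0.0142). The call ended when knockdown mouse 2 or any of wild type mice 1, 2 and 3 was left out (adjusted p = 0.0629, 0.0785, 0.0736 and 0.0599 in that order).

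Yars, the cytosolic enzyme for tyrosine, had values of 8.99, 8.88 and 9.10 in wild type and of 9.52, 9.65 and 9.22 in knockdown. Again knockdown mouse 3 was the lowest of its group and lay nearest to the wild type mice. Yars rose by 0.48 ± 0.13 (1.39-fold, adjusted p = 0.0476), close to the threshold. Without knockdown mouse 3 the difference was 0.60 (adjusted p = 0.000786), and without any other 1 mouse its adjusted p lay at 0.098 or above, with a highest value of 0.195. Testing without the filter on dim genes (adjusted p = 0.0563) and eBayes without trend (adjusted p = 0.0510) also ended the call.

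Iars and Iars2 encode the cytosolic and the mitochondrial enzyme for isoleucine, and this was the one amino acid of which both enzymes rose. Iars had values of 10.45, 10.31 and 10.44 in wild type and of 10.68, 10.68 and 10.92 in knockdown, the last from mouse 3. It rose by 0.36 ± 0.09 (1.29-fold, adjusted p = 0.0374). A second, dimmer probe set of Iars differed by 0.21, and with it in place of the brighter one Iars was not called (adjusted p = 0.193). The probe sets parted in knockdown mouse 3, at 0.53 above the wild type mean in the brighter and 0.05 above it in the dimmer one. Both carry the symbol Iars alone in the platform annotation, whether the brighter one reads only that gene was not tested, and the call of Iars rests on it. Iars2 had values of 9.27, 9.24 and 9.23 in wild type and of 9.53, 9.60 and 9.58 in knockdown. All 3 knockdown mice lay at a similar height, and Iars2 rose by 0.32 ± 0.08 (1.25-fold, adjusted p = 0.0382). The call of Iars ended on leaving out knockdown mouse 2 or any of wild type mice 1, 2 and 3 (adjusted p = 0.0696, 0.112, 0.161 and 0.112 in that order), and Iars2 was not called without any 1 mouse other than knockdown mouse 3 (adjusted p between 0.0622 and 0.177). Median centring also ended both calls (adjusted p = 0.0751 for Iars and 0.0555 for Iars2), as did eBayes without trend for Iars (adjusted p = 0.0624) and testing without the filter on dim genes for Iars2 (adjusted p = 0.0516).

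**Figure D1:**
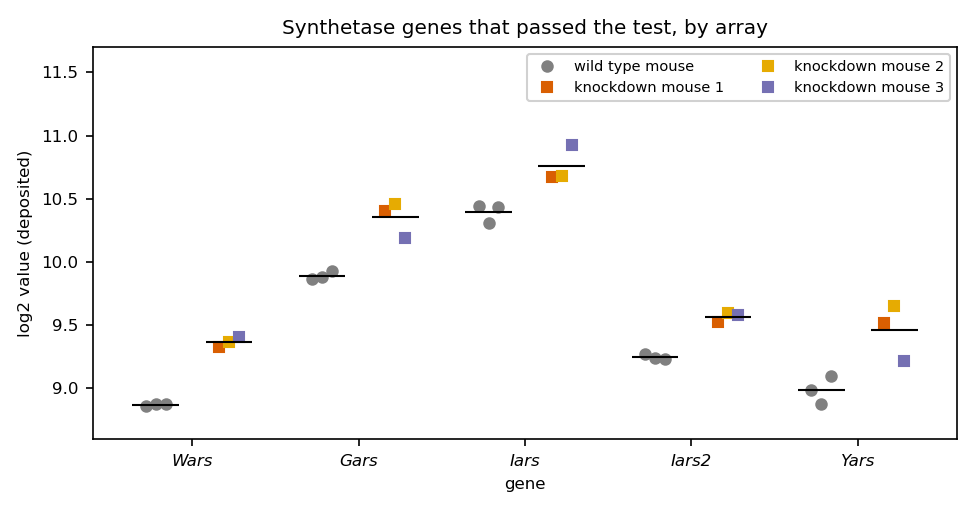
Deposited log2 values (vertical axis) of the 5 synthetase genes that passed the test, with 1 point per mouse, grey circles for wild type, coloured squares for the 3 knockdown mice and a black bar for each group's mean. In each gene all knockdown points lie above all wild type points, and knockdown mouse 3 is the lowest of its group in Gars and Yars and the highest in Wars and Iars.

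The 6 genes of smallest p among those not called also had every knockdown value above every wild type value. That held for 11 of the 29 uncalled genes (37.9%), against 19.9% of all genes tested. Choosing genes by small p favours groups that do not overlap, so for these 6 it adds no support. Tars, the cytosolic enzyme for threonine, had values of 8.72, 8.43 and 8.56 in wild type and of 9.12, 9.21 and 8.77 in knockdown. Its difference of 0.46 ± 0.14 (1.38-fold, adjusted p = 0.0691) was as large as that of Gars, with a wider spread within both groups. Tars was called without knockdown mouse 3 (0.59, adjusted p = 0.0015) and also with array weights (adjusted p = 0.000358), after quantile normalization (adjusted p = 0.0389) and after median centring (adjusted p = 0.0472).

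Vars2, the mitochondrial enzyme for valine, had wild type values of 7.30, 7.34 and 7.37 and knockdown values of 7.57, 7.66 and 7.95, with mouse 3 the highest (difference 0.39 ± 0.12, adjusted p = 0.0833). Farsb, the beta chain of the cytosolic phenylalanine enzyme, had values of 10.03, 9.94 and 10.08 in wild type and of 10.37, 10.42 and 10.13 in knockdown (0.29 ± 0.10, adjusted p = 0.0992). In Farsb mouse 3 lay just above the highest wild type value. Aars2, the mitochondrial enzyme for alanine, was at 7.001, 7.02 and 6.97 in wild type and at 7.19, 7.43 and 7.28 in knockdown (0.30 ± 0.10, adjusted p = 0.103). Pars2, the mitochondrial enzyme for proline, was at 6.49, 6.70 and 6.57 in wild type and at 6.86, 6.81 and 6.85 in knockdown (0.26 ± 0.10, adjusted p = 0.141). Sars2, for serine in mitochondria, was at 7.73, 7.69 and 7.91 in wild type and at 7.98, 8.08 and 8.08 in knockdown (0.27 ± 0.10, adjusted p = 0.152). In Pars2 and Sars2 the wild type mice varied more among themselves than the knockdown mice. Of these, Vars2, Farsb and Aars2 were called without knockdown mouse 3 (adjusted p = 0.0297, 0.00199 and 0.0363).

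The start regions of 27 of the 36 genes were in RefSeq's promoter table of GRCm38.p6, and the 250 bases before each start were searched on both strands for TGATGNAA, the core of the element bound by ATF4 with C/EBP factors, for CACGTG, the E-box bound by MYC, and for AACNG, the core of the MYB site. TGATGNAA was in 3 of the 27 (11.1%), in Gars, Tars and Aars, against 3.91% of 27025 genes in the table. CACGTG was in 3 (11.1%), in Iars, Farsb and Aars, against 6.86%. AACNG was in 22 (81.5%), against 76.8%, so it set few genes apart. Wars, the synthetase gene of smallest p, was among the genes without an entry in that table, so its start region was not searched. A match is a description of the letters and not a site of binding. The 120 bases before the start are shown for the measured genes that held either of the 2 rarer motifs, 2 of which rose and 2 of which did not pass the test. They lie at chr6:55037881-55038000 on the plus strand for Gars, chr15:11399659-11399778 on the minus strand for Tars, chr13:49682010-49682129 on the plus strand for Iars and chr1:78488898-78489017 on the minus strand for Farsb. Each is written 5′ to 3′ on the strand of the gene, and capitals mark the motif (TGATGNAA reads as its reverse complement in Gars and Tars, CACGTG is the same on both strands).
Gars: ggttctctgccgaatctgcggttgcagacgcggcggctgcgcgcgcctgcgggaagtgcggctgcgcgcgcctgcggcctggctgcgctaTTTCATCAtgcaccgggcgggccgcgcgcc
Tars: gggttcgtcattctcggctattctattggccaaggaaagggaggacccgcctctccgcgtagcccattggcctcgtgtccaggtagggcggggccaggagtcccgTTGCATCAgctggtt
Iars: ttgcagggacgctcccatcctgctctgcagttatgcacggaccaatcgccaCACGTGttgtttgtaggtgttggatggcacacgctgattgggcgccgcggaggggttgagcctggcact
Farsb: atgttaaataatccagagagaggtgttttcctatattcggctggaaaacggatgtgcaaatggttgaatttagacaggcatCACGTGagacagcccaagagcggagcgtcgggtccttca
The motif began 30 bases before the start in Gars, 15 in Tars, 69 in Iars and 39 in Farsb.

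The knockdown mice did not move alike. In knockdown mice 1 and 2 all 34 synthetase genes lay above the wild type mean, where 51.5% and 55.9% of all genes tested did. In mouse 1 the differences from the wild type mean ran from 0.05 to 0.55 with a median of 0.24, and in mouse 2 from 0.04 to 0.67 with a median of 0.30. In mouse 3 they ran from -0.44 to 0.76 with a median of 0.03, and 19 genes lay above and 15 below the wild type mean, where 55.6% of all genes lay above. Both mouse 1 and mouse 2 were above every wild type mouse in 30 of the 34 genes, and in 4512 of all 13956 genes tested. Mouse 3 was above every wild type mouse in 17 of the 34 genes, where it was so in 45.1% of all genes tested, and below every wild type mouse in 14 (41.2%, against 36.5%). Mouse 3 had the lowest value of the knockdown group in 24 of the 34 genes (70.6%), where it had the lowest in 42.9% of all genes.

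**Figure D2:**
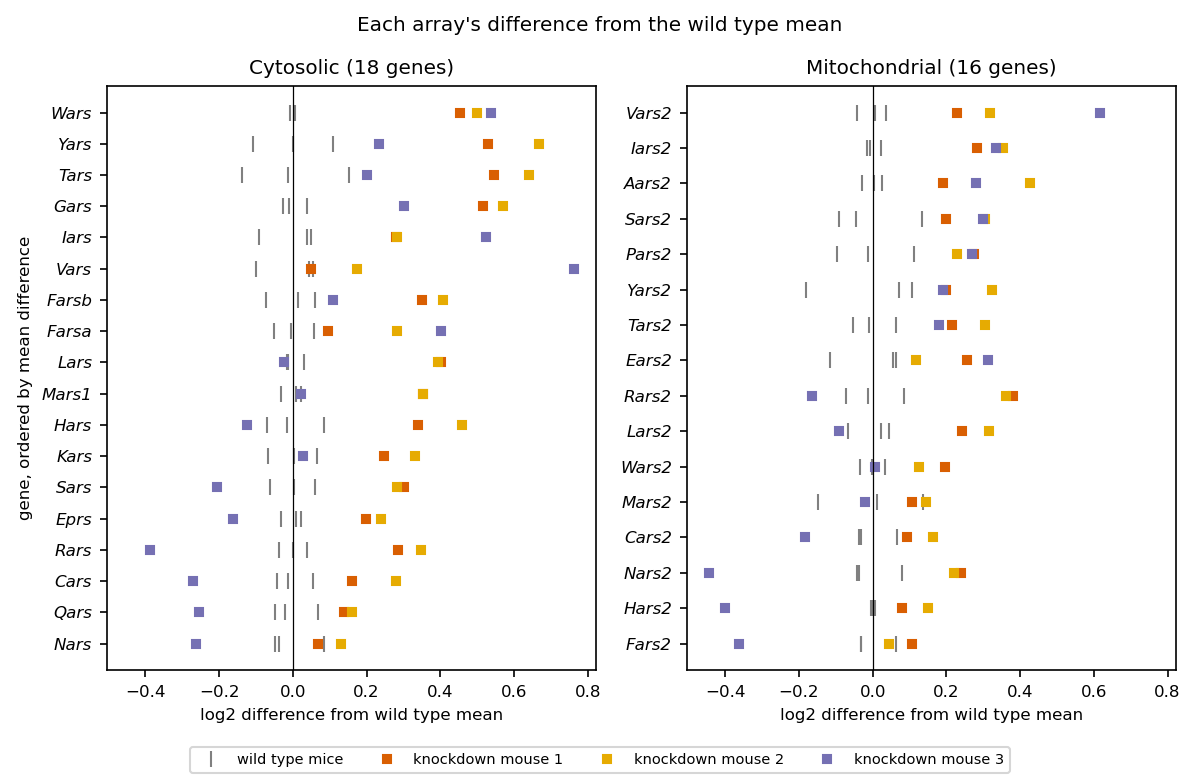
Log2 difference of each array from the wild type mean (horizontal axis) for the 18 cytosolic and 16 mitochondrial synthetase genes measured, ordered by mean difference, with grey ticks for wild type mice and coloured squares for knockdown mice. Knockdown mice 1 and 2 lie to the right of 0 for all 34 genes, while knockdown mouse 3 spreads from -0.44 to 0.76.

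The contrast was widest in Rars, the cytosolic enzyme for arginine. Rars had values of 10.74, 10.70 and 10.78 in wild type and of 11.03, 11.09 and 10.36 in knockdown, so that mice 1 and 2 were above the wild type mice and mouse 3 below them. Over all 3 mice the difference was 0.08 ± 0.17 (adjusted p = 0.838), and without mouse 3 it was 0.32 ± 0.05 (adjusted p = 0.0024). Nars2, the mitochondrial enzyme for asparagine, had wild type values of 7.83, 7.71 and 7.71 and knockdown values of 7.99, 7.97 and 7.30 (difference 0.00 ± 0.18, adjusted p = 0.992). Hars, the cytosolic enzyme for histidine, had values of 9.21, 9.05 and 9.11 in wild type and of 9.46, 9.58 and 8.997 in knockdown (0.22 ± 0.15, adjusted p = 0.419). In each of these 3 genes the groups overlapped, and the spread among knockdown mice was wider than that among wild type mice.

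Other genes went the opposite way in mouse 3. Vars, the cytosolic enzyme for valine, had values of 9.62, 9.78 and 9.77 in wild type and of 9.77, 9.90 and 10.48 in knockdown, so that its difference of 0.33 ± 0.17 (adjusted p = 0.286) came mainly from mouse 3 and was 0.11 ± 0.07 without it (adjusted p = 0.281). Farsa, the alpha chain of the phenylalanine enzyme, was at 9.08, 8.97 and 9.02 in wild type and at 9.12, 9.31 and 9.43 in knockdown (0.26 ± 0.11, adjusted p = 0.165), while mouse 3 was the lowest knockdown mouse for Farsb, the other chain of the same enzyme. The 6 genes in which mouse 3 was the highest of its group were Vars, Vars2, Iars, Farsa, Ears2 and Wars.

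Without knockdown mouse 3 all 34 differences were above 0, with a median of 0.27 against 0.01 over all genes tested, and 19 genes rose (55.9% of the 34, against 17.2% of all genes). With limma 0 fell in that fit, against 10.0% of all genes, and 0 were lower at an unadjusted p under 0.05. Of the 29 genes not called on all arrays, 14 rose without mouse 3. Lars, the cytosolic enzyme for leucine, then differed by 0.40 (adjusted p = 0.00111), against 0.26 ± 0.13 (adjusted p = 0.252) on all arrays. Mars1, for methionine, then differed by 0.35 (adjusted p = 0.00213), against 0.24 ± 0.11 (adjusted p = 0.215). Rars2, the mitochondrial enzyme for arginine, then differed by 0.37 (adjusted p = 0.00459), against 0.19 ± 0.15 (adjusted p = 0.507). The part of library quality or of the mouse itself in the values of mouse 3 was not tested, and leaving it out leaves 2 knockdown mice.

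**Figure D3:**
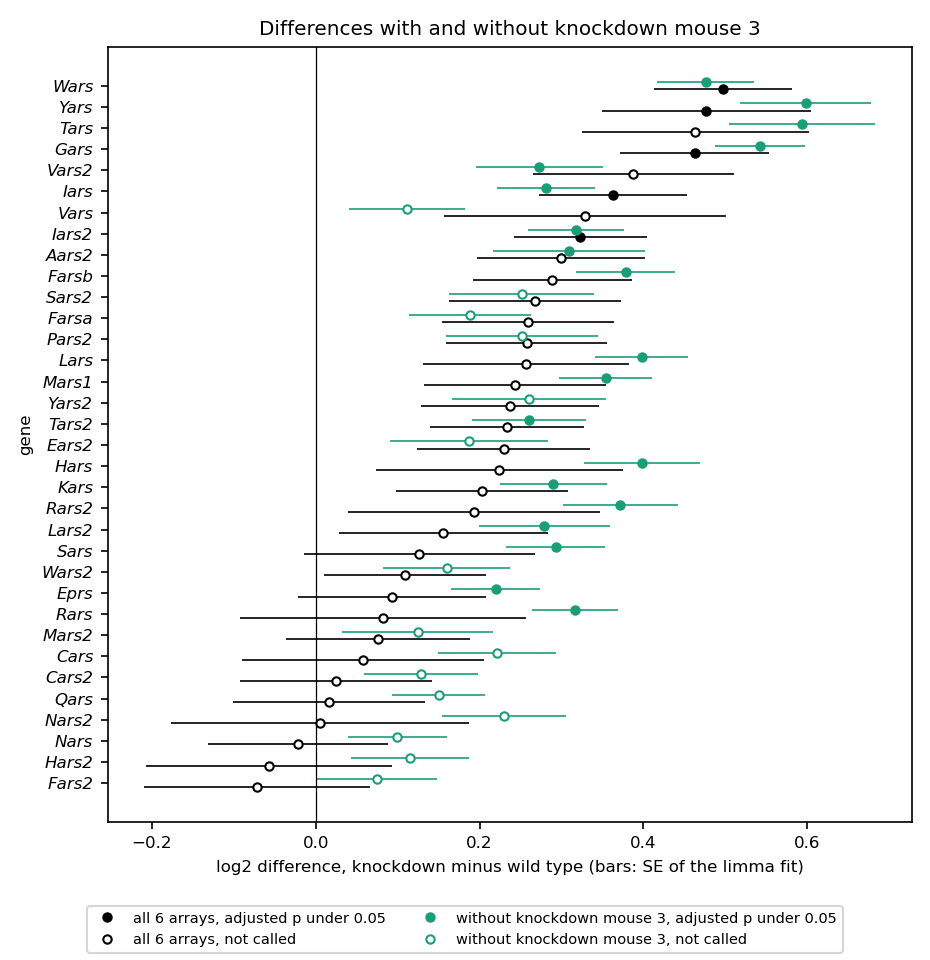
Log2 difference between the group means, knockdown minus wild type (horizontal axis), with the SE of the limma fit for each of the 34 synthetase genes, in black on all 6 arrays and in green without knockdown mouse 3. Filled points passed the test at an adjusted p under 0.05, which holds for 5 genes on all arrays and 19 without that mouse.

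By compartment, 4 of the 18 measured cytosolic genes rose (22.2%, Gars among them) and 1 of the 16 mitochondrial genes did (6.25%). Of all genes tested 6.12% rose, so the mitochondrial share was close to that of all genes. Gars and Kars, which serve both compartments, were counted as cytosolic. The median differences of the cytosolic and mitochondrial genes were 0.25 and 0.21. In 8 genes of each group every knockdown value was above every wild type value, as in 19.9% of all genes tested. For 12 amino acids 1 cytosolic gene of that amino acid alone and 1 mitochondrial gene were both measured, and the cytosolic difference was the larger in 8. Outside that count, the chains of the cytosolic phenylalanine enzyme, Farsa and Farsb, differed by 0.26 and 0.29 against -0.07 for mitochondrial Fars2, and Eprs, for glutamate and proline, differed by 0.09 against 0.23 for Ears2 and 0.26 for Pars2. The pairs of which 1 or both rose were those for isoleucine (above), tryptophan and tyrosine. For tryptophan, Wars rose by 0.50 ± 0.08 while Wars2, the mitochondrial enzyme, had wild type values of 7.27, 7.21 and 7.24 and knockdown values of 7.43, 7.36 and 7.25, a difference of 0.11 ± 0.10 (adjusted p = 0.570). For tyrosine, Yars rose by 0.48 ± 0.13 and Yars2 was at 8.98, 8.73 and 9.01 in wild type and 9.11, 9.23 and 9.10 in knockdown (0.24 ± 0.11, adjusted p = 0.217). The difference between compartments was not tested, and probes on the array can differ in how much of a change they show.

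By class, 4 of 18 class I genes rose (22.2%, Wars, Yars, Iars and Iars2) and 1 of 15 class II genes (6.67%, Gars), where 6.12% of all genes tested rose. The median difference was 0.23 in both classes. Eprs, which joins a class I domain for glutamate and a class II domain for proline in 1 protein, differed by 0.09 ± 0.11 (adjusted p = 0.695) and was left out of this count. Of the 8 synthetases of the multi-synthetase complex 7 were measured, and 1, Iars, rose (14.3%, against 6.12% of all genes tested). The other 6 were Eprs, Kars, Lars, Mars1, Qars and Rars, and in these the knockdown values of mouse 3 were below those of mice 1 and 2 each time. The median difference of the 7 was 0.20 on all arrays, and 6 of the 7 rose without mouse 3, where 17.2% of all genes did. The exception was Qars, for glutamine, at 10.41, 10.30 and 10.32 in wild type and 10.48, 10.505 and 10.09 in knockdown (0.02 ± 0.12, adjusted p = 0.963, and 0.15 without mouse 3, adjusted p = 0.0823).

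The means of 3 genes were lower in knockdown, each by less than its SE. Fars2, the mitochondrial phenylalanine enzyme, differed by -0.07 ± 0.14, Hars2, the mitochondrial histidine enzyme, by -0.06 ± 0.15 and Nars, the cytosolic asparagine enzyme, by -0.02 ± 0.11. In all 3 knockdown mouse 3 was the lowest of the 6 mice, and without it their differences were 0.07, 0.12 and 0.10. Hars and Hars2 are adjacent genes on chromosome 18, and both were lowest in mouse 3. Iars2 and Eprs are also close, on chromosome 1 with 1 protein-coding gene between them, and of these Iars2 rose while Eprs did not pass the test. The other genes not described singly were Cars, Cars2, Ears2, Kars, Lars2, Mars2, Sars and Tars2. Their differences on all arrays lay between 0.03 for Cars2 and 0.23 for Tars2, and 0 of them passed the test, where Tars2 alone had an unadjusted p under 0.05 by limma.

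The scaffold of the multi-synthetase complex has 3 proteins, all measured, and 2 of the genes rose, where 6.12% of all genes tested did. Eef1e1 (AIMP3) had values of 9.55, 9.47 and 9.51 in wild type and of 10.02, 10.26 and 10.33 in knockdown, with every knockdown mouse well above the wild type mice. It rose by 0.69 ± 0.10 (1.61-fold, adjusted p = 0.00331), more than any synthetase gene here, and was called with each 1 mouse left out. Aimp2 rose by 0.49 ± 0.10 (1.40-fold, adjusted p = 0.0190), and its adjusted p was between 0.0666 and 0.108 when knockdown mouse 2 or 1 of the wild type mice was left out. Aimp1 differed by 0.27 ± 0.11 (adjusted p = 0.166). Of the 3 measured genes of the mitochondrial amidotransferase that completes glutaminyl-tRNA (Qrsl1, Gatb and Gatc) 0 passed the test by limma and 1, Gatc, had an unadjusted p under 0.05. Without knockdown mouse 3, 2 of them rose, where 17.2% of all genes did. Of Tarsl2, a synthetase-like gene outside the list, and of Sepsecs and Pstk, which make selenocysteinyl-tRNA, 0 passed the test and 0 had an unadjusted p under 0.05.

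Of 25 measured genes of the amino acid response, most of them known targets of ATF4, 11 rose and 0 fell in limma, with a median difference of 0.31 (0 were lower at an unadjusted p under 0.05). Over all genes tested 6.12% rose and the median difference was 0.02. This list too was chosen with earlier results of these data known. Mthfd2, a mitochondrial folate enzyme, had values of 8.62, 8.76 and 8.74 in wild type and of 9.64, 9.68 and 9.55 in knockdown, and rose by 0.92 ± 0.09 (1.89-fold, adjusted p = 0.000562). Its knockdown mice lay close together and mouse 3 did not stand apart. Shmt2, which makes glycine from serine in mitochondria, rose by 0.65 ± 0.09 and Psat1, of serine synthesis, by 0.60 ± 0.08. Slc7a5 and Slc3a2, the chains of a transporter of large neutral amino acids, rose by 0.80 ± 0.10 and 0.57 ± 0.06, and Sesn2, a leucine sensor, by 0.61 ± 0.10.

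Not every gene of that response moved. Atf4 itself was at 8.39, 8.15 and 8.40 in wild type and at 8.62, 8.67 and 8.50 in knockdown, a difference of 0.28 ± 0.11 (adjusted p = 0.153; 0.0231 without knockdown mouse 3). Asns, asparagine synthetase, differed by -0.06 ± 0.08 (adjusted p = 0.752), and Trib3, Chac1 and Ddit3, further ATF4 targets, by 0.10, -0.08 and -0.15 (adjusted p = 0.662, 0.732 and 0.418). Atf5 and Cebpb, of transcription factors, differed by -0.05 and -0.08 (adjusted p = 0.861 and 0.749). Those 6 were named after their values were seen. The count of 11 was 7 without wild type mouse 1 or 2, 8 without wild type mouse 3, 10 without knockdown mouse 2 and 15 with knockdown mouse 3 left out. In those fits 2.12%, 2.19%, 2.54%, 3.09% and 17.2% of all genes rose, in the order of wild type mice 1, 2 and 3 and knockdown mice 2 and 3. Sesn2 was not called without wild type mouse 1 (adjusted p = 0.0541). TGATGNAA was in the 250 bases before the start of 5 of 23 of these genes in the promoter table, against 3.91% of all genes there, and 1 of those 5, Nupr1, rose. CACGTG was in 2 of the 23, Aldh18a1 and Nupr1, against 6.86% of all genes, and both rose. Of the 23 genes 10 rose in all.

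**Figure D4:**
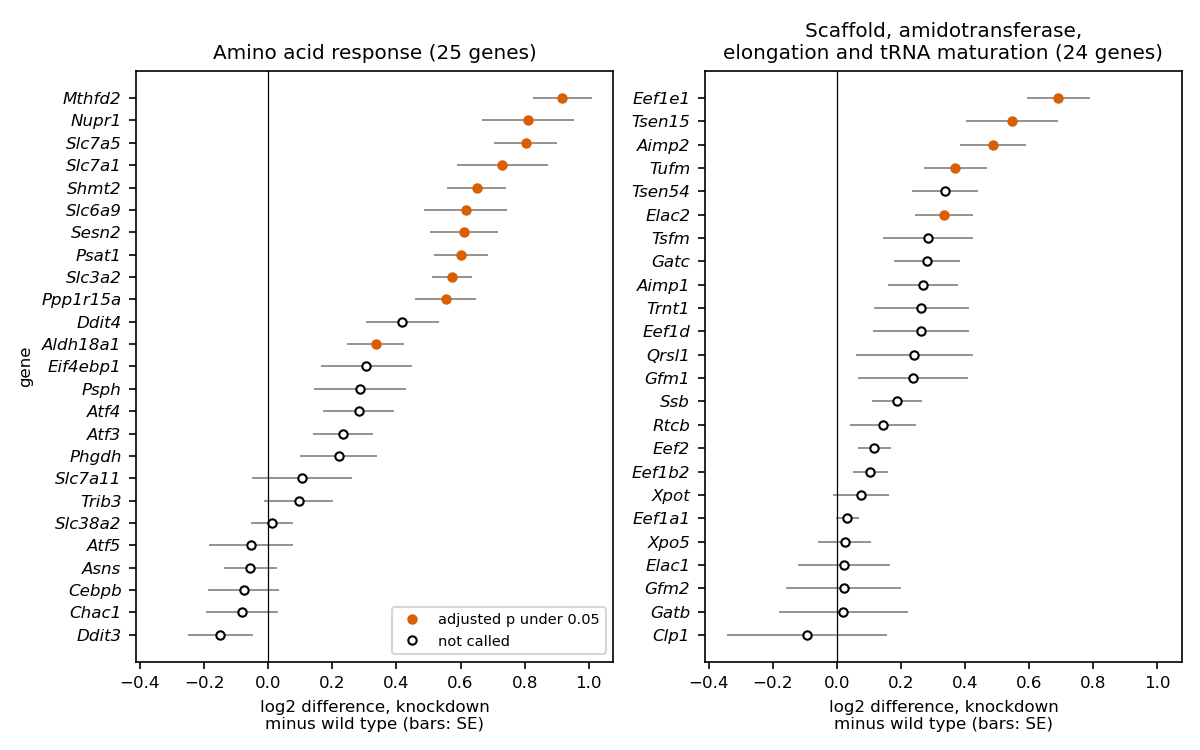
Log2 difference between the group means, knockdown minus wild type (horizontal axis, bars the SE of the limma fit), for 25 genes of the amino acid response and for 24 genes of the synthetase scaffold, the mitochondrial amidotransferase, translation elongation and transfer RNA maturation. Filled points passed the test at an adjusted p under 0.05, which holds for 11 genes on the left, and Asns, Atf5, Cebpb, Chac1 and Ddit3 lie left of 0.

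The kinases of eIF2alpha and their partners (Eif2ak1, Eif2ak2, Eif2ak3, Eif2ak4, Gcn1 and Impact) did not pass the test in any of the 6 genes. By limma 1 was lower, Eif2ak3, and 1 higher, Gcn1, at an unadjusted p under 0.05. Of 8 elongation factors that carry charged transfer RNA to the ribosome or move it, 1 rose, where 6.12% of all genes tested did. This was the mitochondrial factor Tufm, which rose by 0.37 ± 0.10 (adjusted p = 0.0479). Leaving out any 1 mouse other than knockdown mouse 3 ended the call (adjusted p between 0.102 and 0.190). Without knockdown mouse 3, 6 of the 8 rose, where 17.2% of all genes did. Testing without the filter on dim genes, averaging probe sets and eBayes without trend also ended the call of Tufm (adjusted p = 0.0604, 0.0593 and 0.0556). Of 10 genes of transfer RNA maturation and export 2 rose, where 6.12% of all genes tested did. They were Tsen15, a subunit of the splicing endonuclease, by 0.55 ± 0.14 (adjusted p = 0.0435) and Elac2, which trims the 3′ end, by 0.33 ± 0.09 (adjusted p = 0.0498). Leaving out knockdown mouse 2 or 1 of the wild type mice gave a count of 0, while without knockdown mouse 1 it was 1 and without knockdown mouse 3 it was 5, against the same 17.2% of all genes. Both calls also ended with median centring (adjusted p = 0.0591 for Tsen15 and 0.0575 for Elac2) and without the filter on dim genes (adjusted p = 0.0524 and 0.0664), that of Tsen15 with averaged probe sets (adjusted p = 0.0586) and that of Elac2 with robust eBayes (adjusted p = 0.0516). Myc had a difference of 0.24 ± 0.07 (adjusted p = 0.0586), and 0.19 without knockdown mouse 3 (adjusted p = 0.0329).

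Markers of several blood cell types moved between the same groups, where 6.12% of all genes tested rose and 5.48% fell. The sort markers Kit and Itgam differed by -0.27 ± 0.08 and -0.39 ± 0.17 (adjusted p = 0.0600 and 0.202). Of 8 neutrophil genes 7 fell and the mean level of the list was 12.1 in each wild type mouse and between 10.0 and 10.7 in knockdown. Of 4 eosinophil genes 4 fell (mean level 9.58 to 9.89 against 5.85 to 7.07), and of 5 mast cell and basophil genes 3 fell and 2 rose (9.02 to 9.55 against 8.22 to 8.46). Of 5 measured megakaryocyte genes 4 rose, from 7.14 to 7.28 up to 8.68 to 8.77. Of 4 monocyte genes 1 fell, F13a1, with a difference of -2.84 ± 0.34. Csf1r, Ly86 and Ccr2 differed by 0.05, -0.13 and 0.16 and were not called. The lower mean level of the monocyte list (9.69 to 9.90 against 8.73 to 9.37) thus came mainly from F13a1. Of 4 measured erythroid genes 0 passed the test by limma, with 1, Alas2, higher at an unadjusted p under 0.05. Their mean levels were 7.44 to 7.89 against 7.35 to 8.41, the highest in knockdown mouse 3. Of 4 B lymphoid genes tested 2 fell and of 2 T and NK genes tested 1 rose, and Cd3g, a T cell gene, was under the lower quartile of every array. Their part in the synthetase differences was not tested.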

How the data were processed

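The authors deposited 1 log2 value per probe set and array. Expression Console (Affymetrix) and limma are named, with no role, per the submitters' processing notes, and no label states the normalization. That the scale is log2 follows from the range of values, 1.834 to 13.26. Arrays carry no read depth, so the number of arrays limits the precision.

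Of 35556 probe sets, 21789 had 1 symbol, 1621 had several and 12146 were not in the platform annotation table used here. By gene number 21698 matched RefSeq of GRCm38.p6, with 0 symbols changed. Genes in the lowest 30% of mean level were left out. Groups were compared by a linear model without covariates (limma 3.58.1 in R 4.3.3; lmFit, then eBayes with trend), with Benjamini-Hochberg adjustment over all genes tested (threshold 0.05). The fit was tested on simulated data. Each array is labelled as another mouse, and the spread is between mice.

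The members, lists and motifs were chosen with earlier results of these data known. Named were called members, the 6 uncalled of smallest p, pairs with a called enzyme, Myb, Myc, Atf4 and called genes of the related lists, at most 6 per list; others illustrate the range or the pattern of knockdown mouse 3 and were picked after their values were seen. The alternatives were a replicate block, each array left out, quantile normalization, median centring, other filters, averaged probe sets, eBayes without trend or robust, array weights, and, chosen after seeing the data, the second probe set of Iars. Sequences are from RefSeq.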

Additional observations from a re-analysis of the deposited data

How the results depend on the processing

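The count of 5 synthetase genes that rose was between 0 and 19 with 1 array left out. It was 3 with no filter on dim genes (3.80% of all genes rose), 3 without the trend of eBayes (5.93%) and 21 with array weights (16.8%), which gave knockdown mouse 3 the lowest weight (0.13). Wild type mouse 3 had the highest weight (5.12, against 1.32 and 1.08 in wild type mice 1 and 2). The weights came from an iteration that stopped short of its tolerance. With the replicate block the count was 3 (5.35% of all genes rose), without Yars (adjusted p = 0.0715) and Iars2 (0.104), and Tufm, Tsen15 and Elac2 were not called (0.0852, 0.0527 and 0.115). Mice of the same number deviated from their group means with correlations of 0.293, -0.188 and -0.0827. Deviations within a group of 3 mice sum to 0, so these values cannot decide whether the numbers pair the mice. In the other alternatives the count was between 4 and 6, and 0 fell in any alternative by limma, with 0 lower at an unadjusted p under 0.05. The median difference of the 34 genes stayed between 0.19 and 0.27. Of 544 values of single synthetase genes under the alternatives 460 kept their direction and side of the threshold, 32 passed it newly, 29 no longer passed it and 23 changed sign, all 23 in genes not called on all arrays. With 1 array left out the differences of those genes ran from -0.054 to 0.22 for Cars, -0.044 to 0.13 for Cars2, -0.16 to 0.075 for Fars2, -0.16 to 0.12 for Hars2, -0.098 to 0.10 for Nars, -0.11 to 0.23 for Nars2, -0.057 to 0.15 for Qars and -0.050 to 0.32 for Rars. Median centring gave -0.0031 for Cars2, -0.023 for Nars2 and -0.012 for Qars, quantile normalization -0.011 for Qars, and array weights 0.057 for Fars2, 0.10 for Hars2 and 0.11 for Nars. The cause of these changes was not tested, beyond the smaller number of mice where 1 was left out.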
